A study of Mus musculus with 6 samples.

Results

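De novo lipogenesis builds fatty acids from acetyl-CoA, and 10 genes of that route, 7 coding for enzymes and 3 for regulators, were followed by symbol among the 37384 genes of the count table. The enzymes were *Acly*, *Me1*, *Acaca*, *Acacb*, *Fasn*, *Elovl6* and *Scd1*, and the regulators were *Thrsp*, *Srebf1* and *Mlxipl*. RNA came from adipocytes that floated after collagenase digestion of inguinal subcutaneous white adipose tissue (scWAT) of male mice at postnatal day 7. The groups were L1L2-FF mice (Lats1f/fLats2f/f) and L1L2-AKO mice, which carry the same floxed alleles of both kinases of the Hippo pathway and AdipoqCre, a Cre driven by the promoter of an adipocyte gene. Each genotype had 3 libraries and each library was a pool of 4 mice. A library is thus an average over animals, and the p-values below set differences between genotypes against the variation between pools.

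All 6 libraries had similar depth, with total counts from 30548473 to 32107917. *Lats1*, one of the targeted genes, had 76.1, 94.3 and 78.4 CPM in L1L2-FF and 38.9, 41.2 and 40.5 CPM in L1L2-AKO, where CPM is the count scaled to a library size of 1000000 after TMM normalization. *Lats2*, the other targeted gene, went against the label, with 74.9, 85.7 and 68.5 CPM in L1L2-FF and 96.2, 126 and 135 CPM in L1L2-AKO. The counts cover the whole gene and do not separate the floxed exons, so the directions below are drawn between libraries labelled L1L2-FF and libraries labelled L1L2-AKO. The cells carried adipocyte RNA: the adipocyte markers *Lpl*, *Car3* and *Fabp4* each had at least 5757 CPM in every library.

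In lipogenesis, ATP citrate lyase (*Acly*) makes cytosolic acetyl-CoA, malic enzyme (*Me1*) supplies NADPH, acetyl-CoA carboxylases (*Acaca*, *Acacb*) make malonyl-CoA, and fatty acid synthase (*Fasn*) joins these units into palmitate. *Elovl6* lengthens palmitate to stearate, and *Scd1* desaturates the products. The transcription factors SREBP (*Srebf1*) and ChREBP (*Mlxipl*) respond to insulin and to glucose metabolites and drive these genes, and *Thrsp* is a small nuclear and cytosolic protein long known as a marker of lipogenic tissue. In liver and white fat the route rises after feeding on carbohydrate and falls on fasting or on a diet rich in fat, such as milk.

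Of the 10 genes, 4 were lower in the libraries labelled L1L2-AKO and 0 were higher, by the quasi-likelihood test of edgeR, adjusted by Benjamini-Hochberg over 15674 tested genes at a threshold of 0.05. At an unadjusted p under 0.05, by DESeq2 and by limma-voom the counts were also 4 lower and 0 higher. Over all tested genes, 7.18% were called lower and 9.28% higher. The 4 genes were *Thrsp*, *Srebf1*, *Mlxipl* and *Acacb*, that is, all 3 regulators and 1 of 7 enzymes. The same 4 genes had no overlap between the genotypes, against 18.4% of all tested genes that did not overlap and were lower. The fitted log2 fold change was below 0 for 9 of the 10 genes (52.1% of all tested genes), and the median log2 fold change was -0.73 against -0.02 over all tested genes. The libraries labelled L1L2-AKO also had more macrophage RNA, with a summed level of 12 macrophage markers of 989 to 1104 CPM against 263 to 514 CPM. In bulk RNA, fewer cells of a type and less RNA per cell cannot be told apart.

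**Figure D1:**
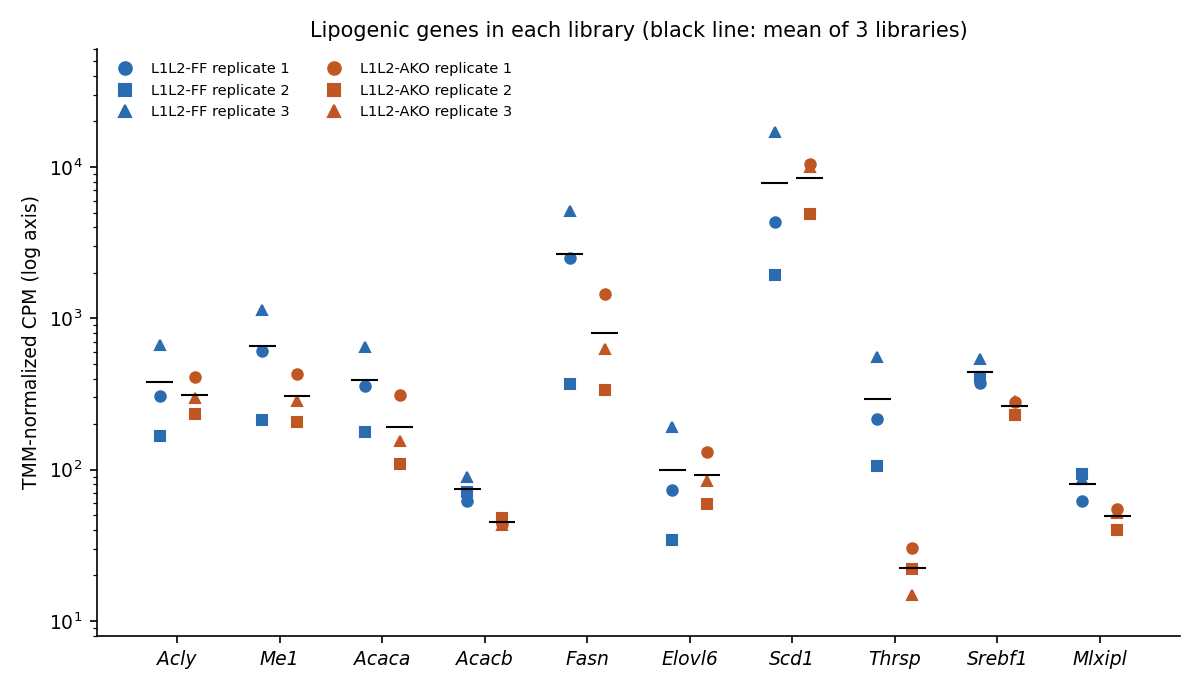
Level of the 10 lipogenic genes in each of the 6 libraries, in TMM-normalized CPM on a log axis, with L1L2-FF in blue, L1L2-AKO in orange, a marker shape for each replicate number and a black line at the mean of 3 libraries. *Thrsp*, *Srebf1*, *Mlxipl* and *Acacb* do not overlap between the genotypes, and *Fasn* and *Scd1* spread by 14.0-fold and 8.82-fold within L1L2-FF.

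*Thrsp* (chr7:97412938-97417730, minus strand, mm10) had by far the largest fitted change among the 10 genes. Its level was 215, 106 and 555 CPM in the L1L2-FF libraries and 30.4, 21.9 and 14.8 CPM in the libraries labelled L1L2-AKO. The lowest L1L2-FF library was above the highest library labelled L1L2-AKO, although the L1L2-FF values themselves spread by 5.24-fold. The log2 fold change was -3.70 (SE 0.60, 95% interval -5.08 to -2.33, edgeR adjusted p = 0.00543), a 13.0-fold lower level. The call held with each of the 6 libraries left out, with log2 fold changes between -4.10 and -2.84.

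*Srebf1* (chr11:60199089-60222581, minus strand), the gene of the insulin-responsive SREBP, had 373, 408 and 542 CPM in L1L2-FF and 281, 231 and 284 CPM in L1L2-AKO. All L1L2-FF libraries were above all libraries labelled L1L2-AKO, by a fitted 1.66-fold (log2 fold change -0.73, SE 0.18, 95% interval -1.14 to -0.33, edgeR adjusted p = 0.0267). *Mlxipl* (chr5:135089890-135138382, plus strand), the gene of ChREBP, had 62.1, 93.2 and 87.3 CPM in L1L2-FF and 55.4, 40.0 and 51.8 CPM in L1L2-AKO. It did not overlap either, although the lowest L1L2-FF library was close to the highest library labelled L1L2-AKO, and its log2 fold change was -0.72 (SE 0.19, 95% interval -1.15 to -0.29, edgeR adjusted p = 0.0342). Within a library the counts of *Mlxipl* and *Srebf1* kept a similar ratio, 0.161 to 0.229 in L1L2-FF and 0.173 to 0.197 in L1L2-AKO. The mean log2 ratio differed by 0.01 between the genotypes (exact permutation test, two-sided, p = 1, where 3 against 3 libraries cannot go below 0.1).

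The calls of both transcription factors were lost without some of the libraries. *Srebf1* was no longer called without L1L2-AKO replicate 1, 2 or 3 (edgeR adjusted p = 0.054, 0.113 and 0.0724). Over all its alternatives the edgeR, DESeq2 or limma adjusted p ranged from 0.00185, by DESeq2, to 0.113. *Mlxipl* was no longer called without L1L2-AKO replicate 2 or 3 or L1L2-FF replicate 2 or 3 (edgeR adjusted p = 0.125, 0.0932, 0.0656 and 0.0787). Its range over all alternatives was 0.00717, by DESeq2, to 0.125.

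The stretches upstream of *Fasn*, *Srebf1* and *Mlxipl* are shown because *Fasn* is the classical target of the 2 transcription factors and the other 2 genes code for them. Each line gives the 250 bases before a RefSeq transcription start (GRCm38.p6, 5′ to 3′ on the strand of the gene), with CCAAT, the box bound by NF-Y, in capitals on either strand.
Fasn, chr11:120824548-120824797, minus strand: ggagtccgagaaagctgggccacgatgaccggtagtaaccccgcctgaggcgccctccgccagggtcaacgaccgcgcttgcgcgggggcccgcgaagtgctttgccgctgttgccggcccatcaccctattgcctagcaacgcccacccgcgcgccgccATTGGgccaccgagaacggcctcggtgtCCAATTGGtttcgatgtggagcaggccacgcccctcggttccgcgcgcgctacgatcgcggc
Srebf1, chr11:60210472-60210721, minus strand, before the start inside the gene: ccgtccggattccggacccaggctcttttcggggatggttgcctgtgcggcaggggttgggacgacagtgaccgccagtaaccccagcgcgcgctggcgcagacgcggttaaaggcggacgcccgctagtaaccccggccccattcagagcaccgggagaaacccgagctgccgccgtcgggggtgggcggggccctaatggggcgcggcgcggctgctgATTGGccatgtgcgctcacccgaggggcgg
Mlxipl, chr5:135089640-135089889, plus strand: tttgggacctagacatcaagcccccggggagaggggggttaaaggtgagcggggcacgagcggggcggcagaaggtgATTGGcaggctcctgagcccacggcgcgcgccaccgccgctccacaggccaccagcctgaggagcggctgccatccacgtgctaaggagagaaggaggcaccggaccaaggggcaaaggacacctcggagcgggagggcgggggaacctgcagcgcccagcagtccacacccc
In these windows *Fasn* held 3 copies of the box on either strand, 2 of them sharing bases, at 90, 62 and 59 bases before the start counted to the first base of the box, and *Srebf1* held 1 copy at 30 bases before its start.

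RefSeq starts were matched for 9 of the 10 genes, 13 starts in all, and *Scd1* had no entry. CCAAT was found on either strand in 7 of the 13 windows (53.8%), which belong to *Acacb*, *Fasn*, *Me1*, *Mlxipl*, *Srebf1* and *Thrsp*, against 33.8% of 32851 mouse promoter windows of the same length. GGGCGG, the GC box, was in 5 of 13 windows against 32.7% of all windows. CACGTG, an E-box, was in 1 window (*Mlxipl*) against 6.02%, GGAATG, the motif of TEAD factors, in 1 window (*Me1*) against 12.6%, and TCACCCCAC, a sterol regulatory element, in 0 windows against 0.496%. Genes that were called and genes that were not both held CCAAT. The window of *Thrsp* held 2 copies but is not printed, since 180 of its 250 bases are annotated as exon by GENCODE M21.

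Of the enzymes that supply carbon and reducing power, neither passed the test. *Acly* (chr11:100476353-100528000, minus strand) had 306, 168 and 665 CPM in L1L2-FF and 408, 232 and 296 CPM in L1L2-AKO. The values of the libraries labelled L1L2-AKO lay inside the L1L2-FF range, and the log2 fold change was -0.28 (SE 0.45, 95% interval -1.32 to 0.75, edgeR adjusted p = 0.726). *Me1* (chr9:86581371-86695953, minus strand) had 612, 212 and 1142 CPM in L1L2-FF and 427, 208 and 284 CPM in L1L2-AKO. L1L2-FF replicate 2 sat among the libraries labelled L1L2-AKO, while the other two L1L2-FF libraries were above all of them. The log2 fold change of *Me1* was -1.10 (SE 0.54, 95% interval -2.33 to 0.14, edgeR adjusted p = 0.212). Of the 50-base stretches of *Me1* transcripts, 22.9% also occur in transcripts of other genes, the pseudogenes *Gm7049* and *Gm7329* among them, so its counts are less certain.

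Both acetyl-CoA carboxylases had lower fitted levels, and only that of *Acacb* passed the test. *Acaca* (chr11:84129672-84401651, plus strand), which codes for the cytosolic carboxylase of lipogenesis, had 358, 179 and 643 CPM in L1L2-FF and 311, 109 and 154 CPM in L1L2-AKO. L1L2-FF replicate 2 overlapped the libraries labelled L1L2-AKO, and the log2 fold change was -1.04 (SE 0.50, 95% interval -2.20 to 0.12, edgeR adjusted p = 0.209). *Acaca* shares 30.4% of its 50-base stretches with transcripts of other genes, mainly *Gm5182*. *Acacb* (chr5:114146535-114250761, plus strand) codes for the carboxylase at the mitochondrial outer membrane, whose malonyl-CoA restrains fatty acid import. It had 62.1, 70.9 and 89.9 CPM in L1L2-FF and 44.1, 47.7 and 42.9 CPM in L1L2-AKO. These groups were tight and separate (log2 fold change -0.73, SE 0.15, 95% interval -1.07 to -0.38, edgeR adjusted p = 0.0144).

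The call of *Acacb* was lost without L1L2-AKO replicate 2 or 3 (edgeR adjusted p = 0.0504 and 0.0651). Over all its alternatives the edgeR, DESeq2 or limma adjusted p ranged from 0.000925, by DESeq2, to 0.0651. The ratio of *Acacb* to *Acaca* counts did not separate the genotypes: it was 0.173, 0.397 and 0.140 in L1L2-FF and 0.142, 0.439 and 0.278 in L1L2-AKO. Its mean log2 difference was 0.28 (exact permutation test, two-sided, p = 0.7).

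*Fasn* (chr11:120805846-120824547, minus strand), the synthase itself, had the widest spread of the 10 genes in both genotypes. Its level was 2512, 366 and 5108 CPM in L1L2-FF and 1442, 336 and 627 CPM in L1L2-AKO. L1L2-FF replicate 2 was close to the lowest library labelled L1L2-AKO, and the other two L1L2-FF libraries were above every library labelled L1L2-AKO. The mean level was 2662 ± 2375 CPM in L1L2-FF and 802 ± 574 CPM in L1L2-AKO (SD, n = 3 each). The log2 fold change of -1.73 (SE 0.85, 95% interval -3.69 to 0.22, edgeR adjusted p = 0.214) did not pass the test, and its interval runs from a level far lower to one slightly higher. Without L1L2-FF replicate 2, *Fasn* (log2 fold change -2.25, edgeR adjusted p = 0.0318) and *Me1* (log2 fold change -1.52, edgeR adjusted p = 0.0212) were called, *Mlxipl* was lost, and 5 of the 10 genes were called lower against 8.09% of all genes tested. Over all alternatives the edgeR, DESeq2 or limma adjusted p ranged from 0.0318 to 0.545 for *Fasn* and from 0.0212 to 0.587 for *Me1*.

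The elongase and the desaturase gave no call and no stable direction. *Elovl6* (chr3:129532355-129638495, plus strand) had 73.3, 34.5 and 190.0 CPM in L1L2-FF and 131, 59.7 and 84.4 CPM in L1L2-AKO. The log2 fold change was -0.11 (SE 0.55, 95% interval -1.39 to 1.16, edgeR adjusted p = 0.921). *Scd1* (chr19:44394455-44407879, minus strand) had 4306, 1940.1 and 17107 CPM in L1L2-FF and 10427, 4904 and 9982 CPM in L1L2-AKO. For both genes L1L2-FF replicate 3 was the highest of the 6 libraries and L1L2-FF replicate 2 the lowest, so that the range of L1L2-FF enclosed that of L1L2-AKO. L1L2-FF replicate 1 was below every library labelled L1L2-AKO for *Scd1* but within their range for *Elovl6*. *Scd1* had a log2 fold change of 0.12 (SE 0.71, 95% interval -1.52 to 1.75, edgeR adjusted p = 0.936), an interval that allows changes of more than 2-fold either way. Without L1L2-FF replicate 3 the fitted log2 fold changes of *Scd1*, *Elovl6* and *Acly* were 1.43, 0.77 and 0.39, with edgeR adjusted p = 0.0943, 0.26 and 0.462.

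**Figure D2:**
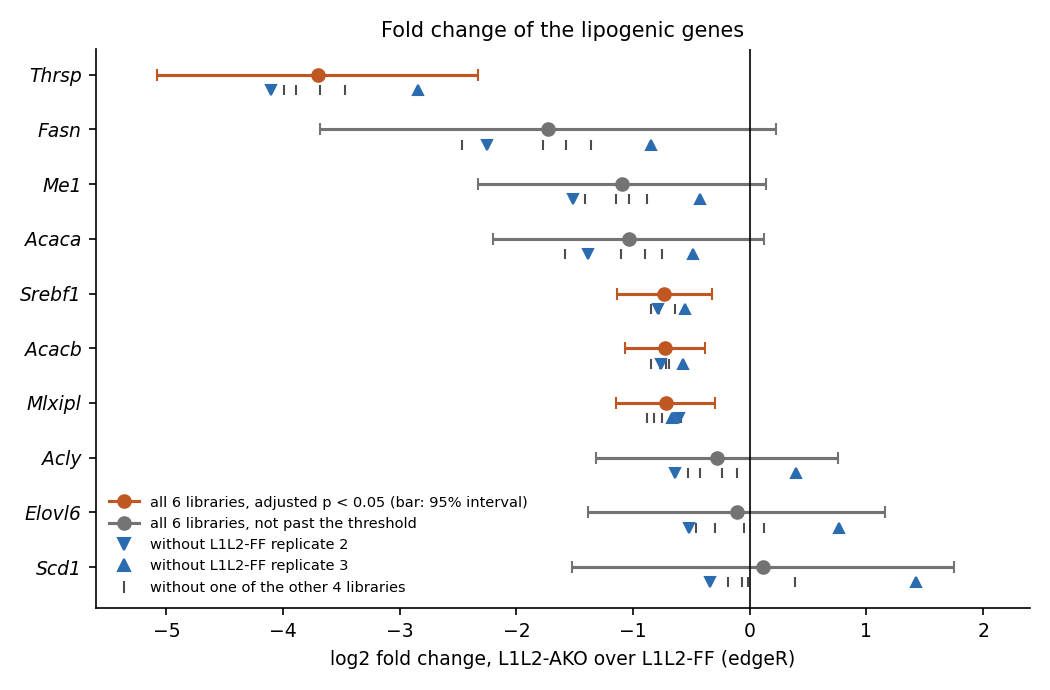
Log2 fold change of L1L2-AKO over L1L2-FF for the 10 lipogenic genes, with 95% intervals from edgeR as bars and, under each, the values with 1 library left out. The intervals of *Thrsp*, *Srebf1*, *Acacb* and *Mlxipl* lie below 0, and leaving out L1L2-FF replicate 2 or 3 moved *Fasn* to -2.25 or -0.84 and *Scd1* to -0.34 or 1.43.

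The spread among the L1L2-FF libraries separated the 10 genes into a wide and a narrow set. The highest L1L2-FF library exceeded the lowest by 14.0-fold for *Fasn*, 8.82-fold for *Scd1*, 5.51-fold for *Elovl6*, 5.39-fold for *Me1*, 5.24-fold for *Thrsp*, 3.97-fold for *Acly* and 3.60-fold for *Acaca*. It was 1.45-fold for *Acacb*, 1.45-fold for *Srebf1* and 1.50-fold for *Mlxipl*. The enzymes other than *Acacb* thus varied severalfold among control pools in which the transcription factors varied little. The median log2 range of the 10 genes was 2.19, against 0.45 over 15534 tested genes with a count in every library and 0.32 over the 5714 of these whose log2 CPM averaged 5 or more. A range above 2-fold was seen in 7 of the 10 genes, against 5.36% of the 5714 genes, and among those 5714 *Fasn* ranked 2 and *Scd1* ranked 4 by range. The libraries labelled L1L2-AKO varied less, with a median log2 range of 1.04 for the 10 genes and 0.35 for all genes, and with the widest range again in *Fasn* (4.30-fold).

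The 7 wide genes took the same order among the L1L2-FF libraries, replicate 3 above replicate 1 above replicate 2, an order shown by 25.6% of all genes. Among the libraries labelled L1L2-AKO, replicate 1 was above replicate 3 and replicate 3 above replicate 2 for *Acly*, *Me1*, *Acaca*, *Fasn*, *Elovl6*, *Scd1* and *Mlxipl*, against 14.5% of all genes. *Acly*, *Me1*, *Acaca*, *Fasn*, *Elovl6* and *Scd1* had both orders, as did 6.10% of all genes. Together the 10 genes took 0.883%, 0.379% and 2.53% of the counts of the L1L2-FF libraries and 1.41%, 0.633% and 1.09% of those of the libraries labelled L1L2-AKO. *Scd1* alone took 0.428%, 0.205% and 1.65% in L1L2-FF and 1.08%, 0.501% and 0.922% in L1L2-AKO.

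Other RNA also differed among the L1L2-FF libraries. The summed level of 15 adipocyte markers was 63952, 48099 and 60625 CPM, a 1.33-fold range, while the summed level of the 10 lipogenic genes ranged 7.31-fold. Summed macrophage markers were 347, 514 and 263 CPM in L1L2-FF replicates 1, 2 and 3. L1L2-FF replicate 2, the lowest for the wide genes, was thus also the highest for summed macrophage markers and the lowest for summed adipocyte markers. The adipocyte markers did not all follow their sum: *Adipoq*, *Plin4* and *Cfd* were highest in L1L2-FF replicate 2. Most of the other adipocyte markers, *Lpl*, *Car3* and *Fabp4* among them, were lowest in it. The part of macrophages and adipocytes in the spread was not tested.

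**Figure D3:**
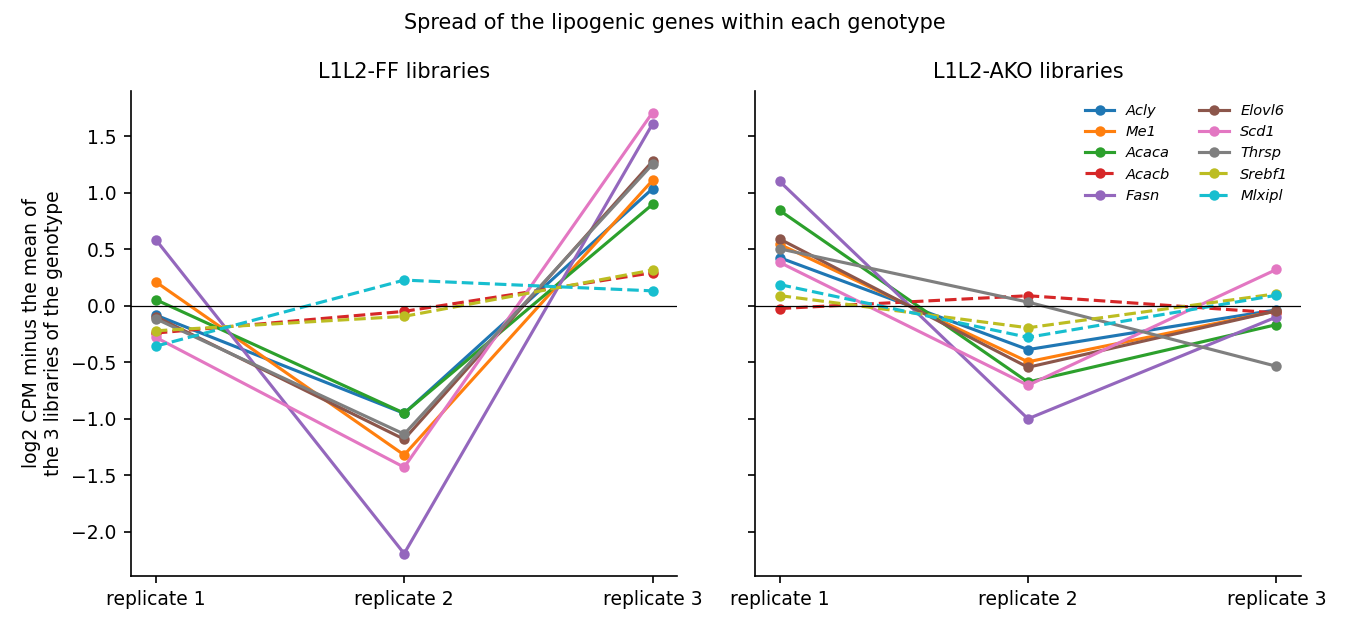
Log2 CPM of each lipogenic gene minus its mean over the 3 libraries of the genotype, in L1L2-FF (left) and L1L2-AKO (right), with lines joining the values of 1 gene and dashed lines for *Acacb*, *Srebf1* and *Mlxipl*. In L1L2-FF the 7 solid genes are all lowest in replicate 2 and highest in replicate 3, while the dashed genes range by at most 1.50-fold.

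Ratios to *Scd1* within a library were taken after the levels had been seen and are given without a test. *Thrsp* had 49.9, 54.6 and 32.4 counts per 1000 counts of *Scd1* in L1L2-FF and 2.92, 4.48 and 1.48 in L1L2-AKO. *Fasn* had 583, 188 and 299 per 1000 in L1L2-FF and 138, 68.5 and 62.8 in L1L2-AKO. *Acaca* (37.6 to 92.0 against 15.5 to 29.9) and *Me1* (66.7 to 142 against 28.4 to 42.4) were likewise lower per 1000 counts of *Scd1* in every library labelled L1L2-AKO than in any L1L2-FF library. The ranges of *Acly* (38.9 to 86.4 against 29.6 to 47.3) and *Elovl6* (11.1 to 17.8 against 8.46 to 12.6) overlapped. In CPM, *Fasn*, *Acaca* and *Me1* overlapped between the genotypes. *Scd1* itself was lower in L1L2-FF replicates 1 and 2 (4306 and 1940 CPM) than in every library labelled L1L2-AKO (4904 to 10427 CPM). The share of all genes that separate on this scale was not computed. Per 1000 counts of *Fasn*, *Thrsp* had 85.6, 290 and 109 counts in L1L2-FF and 21.1, 65.4 and 23.6 in L1L2-AKO.

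The ratio of *Scd1* to its neighbour and paralog *Scd2* did not separate the genotypes. It was 11.4, 12.6 and 10.4 in L1L2-FF and 9.08, 10.9 and 14.6 in L1L2-AKO, while the level of *Scd1* itself ranged 8.82-fold within L1L2-FF. The mean log2 ratio differed by -0.02 between the genotypes (exact permutation test, two-sided, p = 1). *Scd1* shares 4.56% of its 50-base stretches with other transcripts, mainly those of *Scd2* and *Scd3*.

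**Figure D4:**
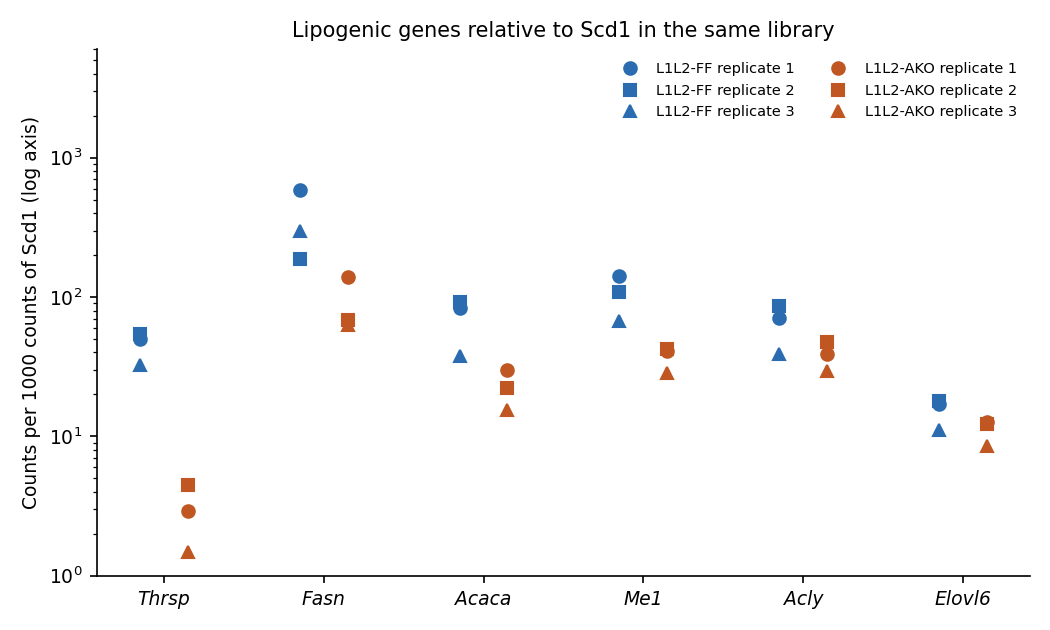
Counts of 6 lipogenic genes per 1000 counts of *Scd1* in the same library, on a log axis, with L1L2-FF in blue, L1L2-AKO in orange and a marker shape for each replicate number. *Thrsp*, *Fasn*, *Acaca* and *Me1* do not overlap between the genotypes on this scale, and *Acly* and *Elovl6* do. The share of all genes that separate on this scale was not computed.

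Per unit of exon length, in TPM (counts per exon length, scaled to the same total in each library) computed with GENCODE M21 exon lengths, *Scd1* had the highest mean level of the 10 genes in both genotypes, 4506 ± 4606 TPM in L1L2-FF and 5337 ± 2019 TPM in L1L2-AKO (SD, n = 3 each). In L1L2-FF it was followed by *Fasn* (688 ± 601 TPM), *Me1* (485 ± 330), *Thrsp* (380 ± 292), *Srebf1* (227 ± 39.8), *Acly* (205 ± 131), *Acaca* (65.9 ± 36.8), *Elovl6* (43.9 ± 34.4), *Mlxipl* (42.8 ± 10.1) and *Acacb* (22.4 ± 3.84). In that order neighbours differed by less than their summed SDs, except *Mlxipl* and *Acacb*. In L1L2-AKO the order was *Scd1*, *Me1* (249 ± 106 TPM), *Fasn* (232 ± 181), *Acly* (184 ± 63.7), *Srebf1* (146 ± 19.2), *Elovl6* (44.7 ± 20.5), *Acaca* (35.4 ± 22.1), *Thrsp* (32.2 ± 13.5), *Mlxipl* (27.5 ± 5.39) and *Acacb* (14.4 ± 1.55). Neighbours there differed by more than their summed SDs only between *Scd1* and *Me1*, between *Srebf1* and *Elovl6*, and between *Mlxipl* and *Acacb*. *Thrsp* moved from rank 4 to rank 8, the largest shift in rank among the 10 genes.

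Beyond the 10 genes, a list of 57 further genes of the route was examined, of which 56 were tested and *Pklr*, the liver pyruvate kinase, was too low. In the libraries labelled L1L2-AKO 8 were lower (14.3%) and 4 higher (7.14%), beside 7.18% and 9.28% of all tested genes, and the median log2 fold change was -0.02 for the list and -0.02 for all tested genes. Among genes of citrate, acetyl-CoA and NADPH metabolism, *Aco1*, the cytosolic aconitase, was 496, 436 and 569 CPM in L1L2-FF and 218, 206 and 219 CPM in L1L2-AKO (log2 fold change -1.23, SE 0.14, edgeR adjusted p = 0.00139). *Me3*, a mitochondrial malic enzyme, rose from 0.287, 0.711 and 0.419 CPM to 0.995, 2.25 and 2.76 CPM (log2 fold change 2.07, edgeR adjusted p = 0.0274), at a level far below that of *Me1*. Among regulators of acetyl-CoA carboxylase, *Trib3*, a pseudokinase, fell by 1.23 on the log2 scale (edgeR adjusted p = 0.00367), *Prkag2*, an AMPK subunit, by 0.52 (edgeR adjusted p = 0.0234) and *Mlycd*, the malonyl-CoA decarboxylase, by 0.48 (edgeR adjusted p = 0.0314). The paralog of *Thrsp*, *Mid1ip1*, had 35.4, 24.5 and 69.0 CPM in L1L2-FF and 60.4, 37.9 and 43.8 CPM in L1L2-AKO. It did not pass the test (log2 fold change 0.14, 95% interval -0.67 to 0.96, edgeR adjusted p = 0.832).

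Of 18 other elongation and desaturation enzymes, 3 were higher (16.7%) and 1 was lower (5.56%), beside 9.28% and 7.18% of all tested genes. *Elovl1*, an elongase of very long chains, had 60.7, 52.6 and 79.1 CPM in L1L2-FF and 121, 109.8 and 127 CPM in L1L2-AKO (log2 fold change 0.89, edgeR adjusted p = 0.00867). *Fads3* rose by 0.79 and *Hacd4*, a dehydratase of elongation, by 1.89 on the log2 scale (edgeR adjusted p = 0.0173 and 0.00158), and *Elovl7* fell by 1.66 at a level of at most 2.23 CPM (edgeR adjusted p = 0.0437). *Scd2* had 378, 154 and 1646 CPM in L1L2-FF and 1149, 449 and 685 CPM in L1L2-AKO, and its log2 fold change was 0.07 (95% interval -1.67 to 1.80, edgeR adjusted p = 0.965).

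Of 12 regulators of SREBP, ChREBP and LXR, 0 passed edgeR's test, beside 7.18% of all tested genes called lower and 9.28% called higher. At an unadjusted p under 0.05, by DESeq2 or by limma-voom, 0 passed as well. Without overlap between the genotypes, 3 of the 12 were higher, *Srebf2* among them, and 0 lower, beside 18% and 18.4% of all tested genes. *Srebf2*, the SREBP gene of sterol synthesis, had a log2 fold change of 0.36 (95% interval -0.04 to 0.75, edgeR adjusted p = 0.203), and *Nr1h3*, the LXR of adipocytes and macrophages, one of -0.25 (95% interval -0.70 to 0.21, edgeR adjusted p = 0.452). The partner of ChREBP, *Mlx*, had a value of 0.17 (95% interval -0.43 to 0.78) and its relative *Mlxip* one of 0.14 (95% interval -0.15 to 0.43), with edgeR adjusted p = 0.715 and 0.505. Of 7 tested further ChREBP targets, 3 were lower (42.9%) and 0 higher, beside 7.18% and 9.28% of all tested genes. The count of higher targets was 1 at an unadjusted p under 0.05, 1 by DESeq2 and 0 by limma-voom. The other 4 targets had fitted levels higher in L1L2-AKO, and the median log2 fold change of the 7 was 0.18. Among the lower targets, *Pnpla3* was 347, 109.5 and 542 CPM in L1L2-FF and 133, 46.6 and 60.3 CPM in L1L2-AKO, overlapping in 1 pair of libraries (log2 fold change -2.06, SE 0.59, edgeR adjusted p = 0.0484). *Gpd1*, which makes glycerol 3-phosphate, fell by 1.20 (edgeR adjusted p = 0.0361) and *Khk*, the fructokinase, by 0.59 (edgeR adjusted p = 0.0489) on the log2 scale. Of these 12 called genes, *Aco1*, *Elovl1*, *Hacd4* and *Trib3* were called with each of the 6 libraries left out, *Fads3* in 4 of the 6 fits, *Prkag2* in 3, *Me3*, *Gpd1* and *Pnpla3* in 2, *Mlycd* in 1, and *Elovl7* and *Khk* in 0.

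The wide spread within L1L2-FF was shared by some of these genes, which are named here after their values were seen. *Acss2*, which makes acetyl-CoA from acetate, had 127, 25.4 and 464 CPM in L1L2-FF. *Slc25a1*, the citrate carrier, had 418, 111 and 583 CPM and *Insig1*, an SREBP target and inhibitor, 506, 130.0 and 774 CPM. These genes followed the order of the 7 wide lipogenic genes, as did 30 of the 56 tested genes of the list. A range above 4-fold within L1L2-FF was seen in 8 of the 56 genes, against 3.11% of all tested genes with a count in every library. Of those 8, *Elovl2*, *Elovl3* and *Scd3* had low levels, at most 0.479, 2.71 and 4.93 CPM in L1L2-FF, and *Elovl2* did not follow that order.

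Of 15 adipocyte markers, 5 were lower (33.3%) and 0 higher by edgeR, beside 7.18% and 9.28% of all tested genes. At an unadjusted p under 0.05, by DESeq2 and by limma-voom 8, 9 and 5 were lower, and 0 were higher too. The 5 lower markers were *Adipoq*, *Retn*, *Pparg*, *Car3* and *Cfd*. The summed level was 48099 to 63952 CPM in L1L2-FF and 37101 to 49221 CPM in L1L2-AKO, with 0 of the markers at 0. The summed levels overlapped, and the other 10 markers, *Lpl* and *Fabp4* among them, did not pass the test. Fitted levels were lower for 12 of the 15 markers, with a median log2 fold change of -0.58. Without overlap between the genotypes, 9 of the 15 were lower and 1 higher, beside 18.4% and 18% of all tested genes. The count of lower markers was 3 without L1L2-AKO replicate 2 or L1L2-FF replicate 1 and 7 without L1L2-FF replicate 2. *Adipoq*, the gene whose promoter drives the Cre, had 2207, 2396 and 1719.9 CPM against 695, 901 and 1036 CPM. All 12 macrophage markers were higher, with a median log2 fold change of 1.51, and *Mrc1*, the most abundant, had 68.8, 96.3 and 49.3 CPM against 239, 288 and 240.0 CPM. Without 1 library, 8 to 12 of them were called, 8 without L1L2-FF replicate 1. The part of the macrophage markers and of the 5 lower adipocyte markers in the differences of *Thrsp*, *Srebf1*, *Mlxipl* and *Acacb* was not tested. The 4 lipogenic genes were 13.0-fold, 1.66-fold, 1.65-fold and 1.65-fold lower. Of the 5 lower adipocyte markers, *Cfd* was 17.6-fold, *Retn* 3.58-fold and *Car3* 2.53-fold lower. *Adipoq* fell less than *Car3* but more than *Srebf1*, *Mlxipl* and *Acacb*, and *Pparg* fell less than all 4 lipogenic genes. The lowest summed adipocyte level was 37101 CPM in L1L2-AKO and 48099 CPM in L1L2-FF. That sum includes *Lpl*, which had a fitted 1.43-fold higher level in L1L2-AKO and did not pass the test.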

How the data were processed

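Each library held RNA of adipocytes pooled from 4 male mice, and a BGISEQ-500 gave paired-end reads. The authors aligned reads to mm10 with HISAT2 2.1.0 and used SAMtools and StringTie 1.3.5. The counting program, annotation and strand setting are not given in the sources used here. The authors deposited raw counts, 1 row per gene symbol and without normalization, and total counts ran from 30548473 to 32107917. With strand unknown, reads of overlapping genes, such as *Srebf1* and *Rai1*, cannot be told apart.

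Genotype and replicate came from the labels. The main comparison used edgeR 4.0.16 in R 4.3.3: filterByExpr (minimum count 10, minimum total 15) kept 15674 genes, including the 10 lipogenic genes, followed by TMM and the two-sided quasi-likelihood test with Benjamini-Hochberg adjustment and a threshold of 0.05. Ratios were tested by exact permutation over libraries. Alternatives were other size factors, DESeq2 1.42.0, limma-voom (limma 3.58.1), other filters, an added 2-fold threshold, the replicate number as a block and each library left out. The fit was tested on simulated data. TPM and positions used GENCODE M21, which held 36888 of the 37384 symbols.

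The members and lists were chosen with earlier results of these data known. Named were the 10 genes, list genes past the threshold with *Scd2*, *Srebf2*, *Mid1ip1*, *Mlxip*, *Mlx* and *Nr1h3*, the top 3 genes by level of each marker list, *Lats1* and *Lats2*, and the 5 genes most like the lipogenic genes. *Acss2*, *Slc25a1*, *Insig1*, *Pklr*, *Elovl2*, *Elovl3*, *Scd3*, *Plin4* and the lower adipocyte markers were named after their values were seen. Marker lists for adipocytes, macrophages and 6 further cell types were examined, and 1 further list is not reported here.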

Additional observations from a re-analysis of the deposited data

How the results depend on the processing

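With 3 libraries per genotype, the permutation tests cannot go below p = 0.1. The lowest count of a lipogenic gene in any library was 424, for *Thrsp*, and depth was not varied. *Thrsp* was called in all 17 alternatives. Among the 10 lipogenic genes 4 were called lower, 1 with an added 2-fold threshold and 1 to 5 with a library left out, and 0 were called higher in any alternative. Of all genes 2580 were called, 1366 with the 2-fold threshold and 1281 to 2845 with a library left out. Of the 57 further genes 8 were called lower, 5 with the 2-fold threshold and 2 to 12 with a library left out. The 4 called higher became 7 by DESeq2's Wald test, 2 with the 2-fold threshold and 2 to 5 with a library left out. The fitted direction turned for *Acly* without L1L2-FF replicate 3 (0.39, range with a library left out -0.64 to 0.39), for *Elovl6* by limma-voom (0.15), without L1L2-AKO replicate 2 (0.12) and without L1L2-FF replicate 3 (0.77, range -0.52 to 0.77), and for *Scd1* without L1L2-AKO replicate 1 (-0.07) or 3 (-0.02) and without L1L2-FF replicate 1 (-0.18) or 2 (-0.34, range -0.34 to 1.43), all as log2 fold changes that did not pass the test. With a library left out, the log2 differences in ratio ran from -0.10 to 0.73 for *Acacb* to *Acaca*, from -0.20 to 0.14 for *Scd1* to *Scd2* and from -0.086 to 0.17 for *Mlxipl* to *Srebf1*. Apart from the DESeq2 count above, other size factors, tools and count filters kept these counts within 1.5 times. The cause of these changes was not tested.

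Samples with the same replicate number did not all deviate together (correlations of 0.188, 0.255 and -0.05 for numbers 1, 2 and 3). The value for number 2 was the highest of any pair, and L1L2-AKO replicate 1 correlated best with L1L2-FF replicate 3 (0.211). Whether the number pairs the samples was not settled by these correlations. As a check only, the fit with the replicate block called 2514 genes and 3 of the 10 lipogenic genes lower, without *Mlxipl* (log2 fold change -0.71, edgeR adjusted p = 0.0625), and gave *Elovl6* a log2 fold change of 0.17.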

Other observations

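Among 9955 other genes whose log2 CPM averaged 3 or more, those whose level was most like the mean of the standardized lipogenic genes over the 6 libraries were *Dolk* (Pearson r = 0.995), *Ehbp1l1* (0.995), *2310039H08Rik* (0.991), *Nap1l4* (0.989) and *Dnajb14* (0.989). They were picked for this likeness, and the 6 points share the 2 genotypes and the same normalization. *Dolk*, which makes dolichol phosphate for glycosylation, had 83.8, 64.8 and 119 CPM in L1L2-FF and 76.1, 52.2 and 64.4 CPM in L1L2-AKO. All 5 had a narrower range than *Fasn* in L1L2-FF, and 0 of the 5 passed edgeR's test, also at an unadjusted p under 0.05, by DESeq2 and by limma-voom.

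Markers of other cells were also measured, and their counts stand beside 7.18% of all tested genes called lower and 9.28% called higher. Of 7 brown and beige adipocyte markers (*Ucp1*, *Cidea* and *Cox8b* the most abundant), 2 were lower, with a summed level of 382 to 757 CPM in L1L2-FF and 280 to 431 CPM in L1L2-AKO, the highest being L1L2-FF replicate 3. Of 7 endothelial markers (*Cdh5*, *Pecam1* and *Kdr*) 0 passed edgeR's test (1 at an unadjusted p under 0.05, 0 by DESeq2 and 0 by limma-voom), with 1826 to 2466 and 1068 to 2324 CPM. Of 7 progenitor and fibroblast markers (*Dcn*, *Cd34* and *Lum*) 1 was lower, with 498 to 741 and 378 to 489 CPM. Of 6 mural markers (*Mcam*, *Rgs5* and *Pdgfrb*) 2 were lower and 1 higher, with 1401 to 1745 and 1454 to 1529.97 CPM. Epithelial markers (*Cdh1*, *Krt19* and *Krt18*) summed to 2.52 to 6.64 and 2.17 to 3.21 CPM, with 1 of 2 tested genes higher, and skeletal muscle markers (*Acta1*, *Mylpf* and *Tnnt3*) to 11.3 to 17.5 and 2.76 to 8.90 CPM, with 0 of 4 tested genes past edgeR's threshold (2 at an unadjusted p under 0.05, 2 by DESeq2 and 1 by limma-voom). With 1 library left out some of these counts changed. Brown and beige markers had 1 lower without L1L2-AKO replicate 1 or 3. Progenitor and fibroblast markers had 0 lower without L1L2-AKO replicate 2 or 3 or L1L2-FF replicate 1, and 3 lower without L1L2-FF replicate 3. Mural markers had 0 lower and 0 higher without L1L2-AKO replicate 2, 0 lower without L1L2-FF replicate 1, and 1 lower without L1L2-AKO replicate 3 or L1L2-FF replicate 3. Epithelial markers had 0 higher without L1L2-AKO replicate 2 or 3 or L1L2-FF replicate 1, and skeletal muscle markers had 1 lower without L1L2-AKO replicate 3 or L1L2-FF replicate 3.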
